A study of Mus musculus with 27 samples.

Results

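Arid1a and Smarcb1 encode subunits of SWI/SNF, the complex that uses ATP to slide and evict nucleosomes and so sets which enhancers and promoters are open. Smarcb1 is a core subunit shared by the BAF and PBAF forms of the complex, and Arid1a is the DNA-binding subunit that marks the BAF form. In thyroid cancer, mutant Braf drives the MAPK cascade (RAF, MEK and ERK kinases), which is known to switch off thyroid genes, and RAF and MEK inhibitors have been used to bring those genes back.

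The comparison described here set 3 mouse thyroid tumor cell lines with a knockout (KO) of Arid1a against 3 with a KO of Smarcb1, all treated with the RAF and MEK inhibitor CH5126766 (CKI), 6 of the 27 libraries of the series. The samples were chosen by genotype and treatment label, with earlier results of these data known. Every line carries Braf(V600E), was grown out from a dissociated tumor, and received 300 nM CKI for 8 days. The labels mention bovine TSH, the hormone that stimulates thyrocytes, in wording that does not settle which arms had it. The Arid1a KO lines were BA45198, BA47473 and BA49112, and the Smarcb1 KO lines were BS53736, BS53958 and BS53965. Values of single lines are given in that order throughout. Libraries of the same 6 lines in vehicle (Trappsol, a cyclodextrin product) and the CKI libraries of 3 lines with Braf(V600E) alone (Braf lines) are used beside them. The labels do not say whether lines of a genotype came from separate mice, so p-values measure spread between lines, which may not be spread between mice. In the main fit that spread was estimated from all tumor line libraries of the series, in vehicle and under CKI, not from the 6 compared libraries alone. That fit took the vehicle and CKI libraries of a line as independent. The cultures are not pure by any label, and fewer cells of a type and less RNA per cell cannot be told apart in such samples.

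Total counts were 21183682 to 26670135 in the Arid1a KO libraries, against 22351748, 11684983 and 2884130 in the Smarcb1 KO libraries, so the BS53958 and BS53965 libraries were shallow. These shallow libraries also stood apart in content. By a rule set after the data were seen (over 3 CPM in both and over 5 times the level in each of the other 22 tumor line libraries), 42 genes marked them, of which 6 are mitochondrially encoded and 35 carry Gm or pseudogene symbols. mt-Co3, a cytochrome oxidase subunit, had 0 CPM in each Arid1a KO library, against 0, 80.2 and 69.5 CPM in the Smarcb1 KO libraries. Of the 42 genes, 17 were tested and all 17 were called lower in Arid1a KO, a direction that the rule itself sets. In vehicle, where the same lines do not carry the mark, 1 was called. The cause was not tested. In line BS53965 alone, Xist had 1822 CPM and the Y-linked Ddx3y had 0 CPM, against 90.4 to 147 CPM of Ddx3y in the Arid1a KO libraries. A floor of 3 counts equals 0.116 to 0.142 CPM in the Arid1a KO libraries and 0.123, 0.253 and 0.899 CPM in the Smarcb1 KO libraries. These floors cover counting error only.

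Of 15634 genes tested, 3827 (24.5%) were called, meaning an adjusted p under 0.05 in edgeR's quasi-likelihood test over all genes. Of these, 1992 (12.7%) were higher and 1835 (11.7%) were lower in Arid1a KO, and the median log2 change of all genes was 0.00. Correlation of log2 CPM across genes was 0.958 to 0.972 among the Arid1a KO libraries, 0.899 to 0.943 among the Smarcb1 KO libraries and 0.823 to 0.844 between them. Without lines BS53958 and BS53965, 1007 genes were called, 783 of them among the 3827, with BS53736 then the lone Smarcb1 KO line and assumed to vary like the other lines. Without BA45198 2228 of 16412 genes tested were called, without BA47473 2690 of 16472, and without BA49112 2526 of 16416. Without BS53736 it was 3676 of 16377, without BS53958 2723 of 16248, and without BS53965 2856 of 16196. A limma voom fit took the cell line as a random block, so the 2 libraries of a line did not count as independent. Of 15634 genes it called 2569, 2386 of them among the 3827. In this fit 1363 genes were higher and 1206 were lower in Arid1a KO, the numbers to set its list counts against. It called 8 of 22 cholesterol synthesis and 1 of 14 contractile genes higher, and 9 of 24 replication genes lower. Of 165 named genes with a call, 106 kept it without each of the 6 lines in turn and 60 kept it without both shallow lines. Where groups are said not to overlap or to be separate, the share of all genes for which this holds is not given. Such statements describe the values of named genes, many picked by a small adjusted p, and are no further support. List counts below are given with all lines, and mostly beside them without the shallow lines. The fit without both shallow lines tested 17031 genes and called a smaller share of them. Its list counts are therefore not to be set against 12.7% and 11.7%. Levels are CPM, counts scaled to the TMM-adjusted size of the library.

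**Figure D1:**
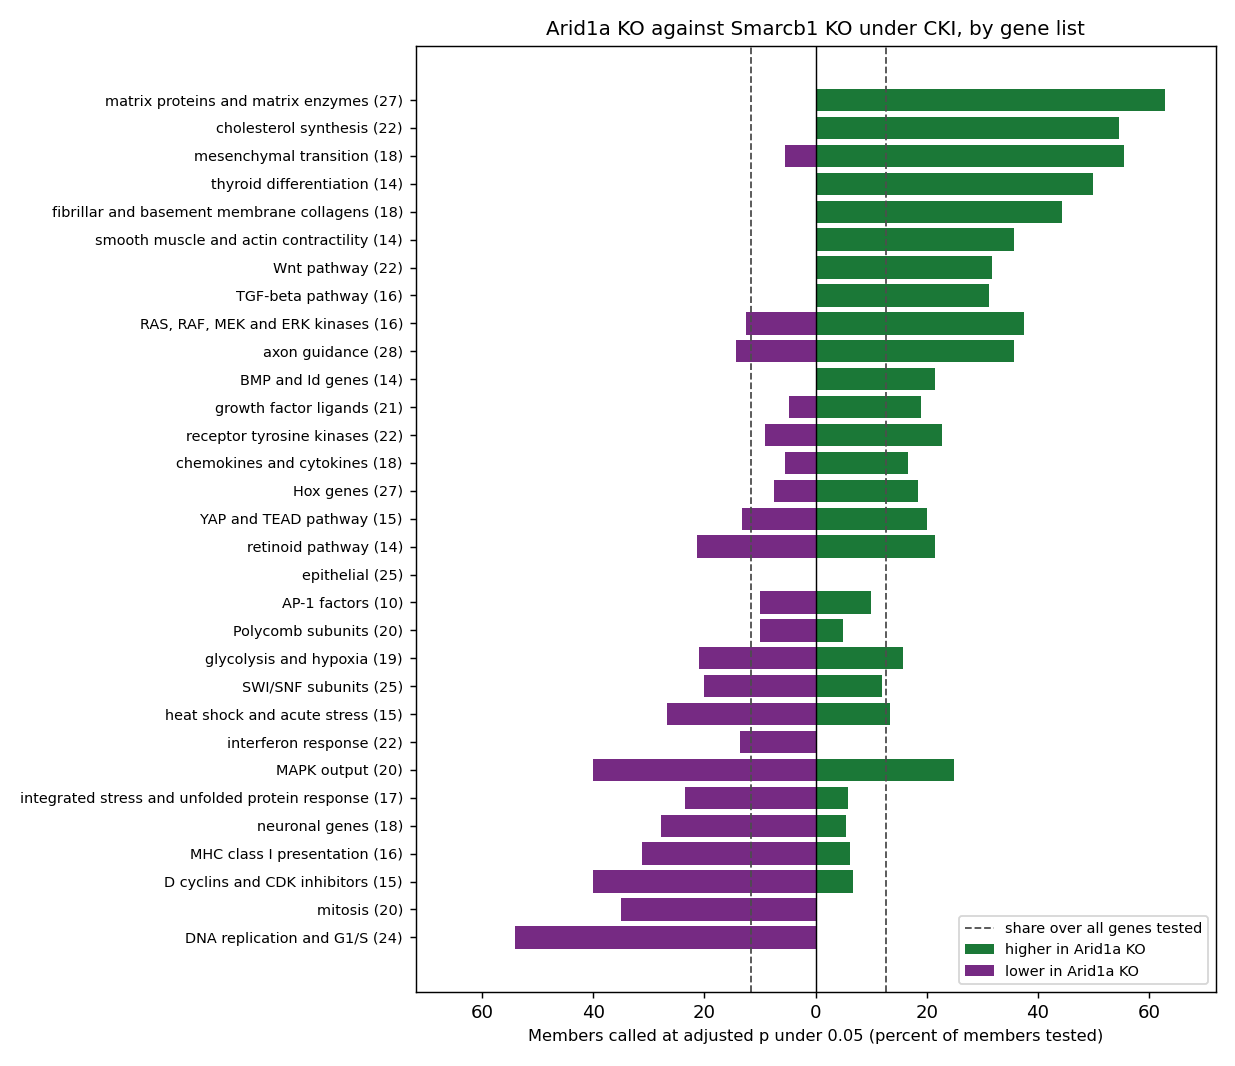
Share of tested members of each gene list (number tested in brackets) called higher (right, green) or lower (left, purple) in Arid1a KO than in Smarcb1 KO under CKI, at an edgeR adjusted p under 0.05. Dashed lines mark the shares over all 15634 genes tested, 12.7% higher and 11.7% lower. Matrix, mesenchymal, cholesterol synthesis and thyroid lists reach farthest to the right, DNA replication farthest to the left, and no epithelial gene was called.

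The deleted genes were read first. Smarcb1 had 97.3, 80.4 and 74.6 CPM in Arid1a KO lines, against 0.123, 1.43 and 3.30 CPM in Smarcb1 KO lines. The groups did not overlap, and the difference was 6.05 ± 0.83 (log2 ± SE, edgeR adjusted p = 0.000196). Arid1a had 64.2, 75.2 and 90.2 CPM in Arid1a KO lines, against 289, 306 and 361 CPM in Smarcb1 KO lines, a log2 difference of -2.06 ± 0.18 (edgeR adjusted p = 4.05e-06). Arid1a was thus still counted in its own knockout, where a gene-level count does not show which exons remain, and Braf lines under CKI averaged 129 ± 12.7 CPM (SD, n = 3). That mean lay above every Arid1a KO line and below every Smarcb1 KO line. The log2 difference of Arid1a is therefore not read as loss in its knockout alone. Arid2, the DNA-binding subunit of the PBAF form, averaged 123.8 ± 12.3 CPM in Arid1a KO lines and 127 ± 38.6 CPM in Smarcb1 KO lines (SD, n = 3 each; log2 difference -0.04, edgeR adjusted p = 0.933).

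Among 25 tested SWI/SNF genes, 3 were higher, 5 were lower and 17 were not called in Arid1a KO, with a median log2 change of -0.08. These counts include the deleted genes, Smarcb1 among the higher and Arid1a among the lower, whose direction the genotypes set. Smarca4, the Brg1 ATPase, had 269.5, 285 and 272 CPM in Arid1a KO lines, against 529, 513 and 452 CPM in Smarcb1 KO lines (log2 -0.85, edgeR adjusted p = 0.000538). Dpf1, a neural BAF subunit, was also lower, but its call ended without BA45198 or BS53965 (adjusted p up to 0.0712). Without BA45198, 1 SWI/SNF gene was higher, Smarcb1, and 2 were lower, Arid1a and Smarca4. Without BA49112, BS53958 or BS53965, 3 were lower. Without both shallow lines the median log2 change of the list was -0.10. Of 20 Polycomb genes, which act against SWI/SNF at many promoters, 1 was higher and 2 were lower (none and 1 without both shallow lines), below the share over all genes. The histone methyltransferase Ezh2 was lower by a log2 change of -1.25, and its call ended without BA45198, BA49112 or BS53958 (adjusted p up to 0.149).

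Thyroid genes were higher in Arid1a KO. Of 14 tested members of the thyroid list, 7 were higher, none were lower, and the median log2 change was 3.25 (2.99 with a group at 0 set to its bound). In the limma voom fit 3 were higher and none were lower, and Tg, Tshr and Dio2 were not called. Glis3, a zinc finger factor needed for thyroid hormone synthesis, had 151, 87.4 and 119.8 CPM in Arid1a KO lines, against 14.1, 3.28 and 3.90 CPM in Smarcb1 KO lines. Its groups did not overlap and it differed by 4.03 ± 0.86 on the log2 scale (edgeR adjusted p = 0.00367). Tg, thyroglobulin, the protein on which thyroid hormone is made, had 283, 42.8 and 249.6 CPM in Arid1a KO lines, against 0.779, 7.24 and 0.899 CPM in Smarcb1 KO lines. Every Arid1a KO line was above every Smarcb1 KO line, with BA47473 the lowest of its group, and the difference was 5.94 ± 1.67 (edgeR adjusted p = 0.0161).

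Tshr, the TSH receptor, had 179, 14.0 and 29.5 CPM in Arid1a KO lines, against 0.369, 0 and 0.30 CPM in Smarcb1 KO lines, where the values lie near the floor. Its log2 difference was 8.32 ± 2.27 (edgeR adjusted p = 0.0140). Dio2, the deiodinase that activates the hormone, had 90.2, 6.72 and 34.1 CPM in Arid1a KO lines, against 0.041, 0 and 0.899 CPM in Smarcb1 KO lines. Among Arid1a KO lines, Tg, Tshr and Dio2 were each highest in BA45198 and lowest in BA47473. Hhex, a lineage factor, and Thra, a hormone receptor, were higher by log2 changes of 3.99 and 1.81. The lineage factor Pax8 had 96.7, 54.5 and 90.4 CPM in Arid1a KO lines, against 379, 4.13 and 35.4 CPM in Smarcb1 KO lines, so the groups overlapped and BS53736 was above all other lines (log2 -0.80, edgeR adjusted p = 0.622).

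Nkx2-1, a thyroid and lung lineage factor, was present in every line, at 232, 241 and 198 CPM in Arid1a KO lines, against 141, 27.8 and 52.8 CPM in Smarcb1 KO lines (edgeR adjusted p = 0.171). Thrb, a hormone receptor (log2 3.04, adjusted p = 0.078), and the iodide pump gene Slc5a5 (log2 -1.78, adjusted p = 0.088) missed the threshold. Foxe1, Duox1 and Duoxa1, a lineage factor and the peroxide-generating oxidase with its maturation factor, had at most 0.619 CPM in any of the 6 libraries and were not called. Slc26a4, Iyd, Dio1, Duox2 and Duoxa2 were among 6 members that did not pass the filter on low counts. Only Glis3 kept its call without each line in turn. The count fell to 3 without BA45198, BS53958 or BS53965, and without both shallow lines none were higher and Pax8 alone was lower (log2 -2.27 against the lone BS53736). In vehicle 3 of the 14 were higher. Of all 15634 genes, 13.8% were called there in either direction, 1280 higher and 877 lower.

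**Figure D2:**
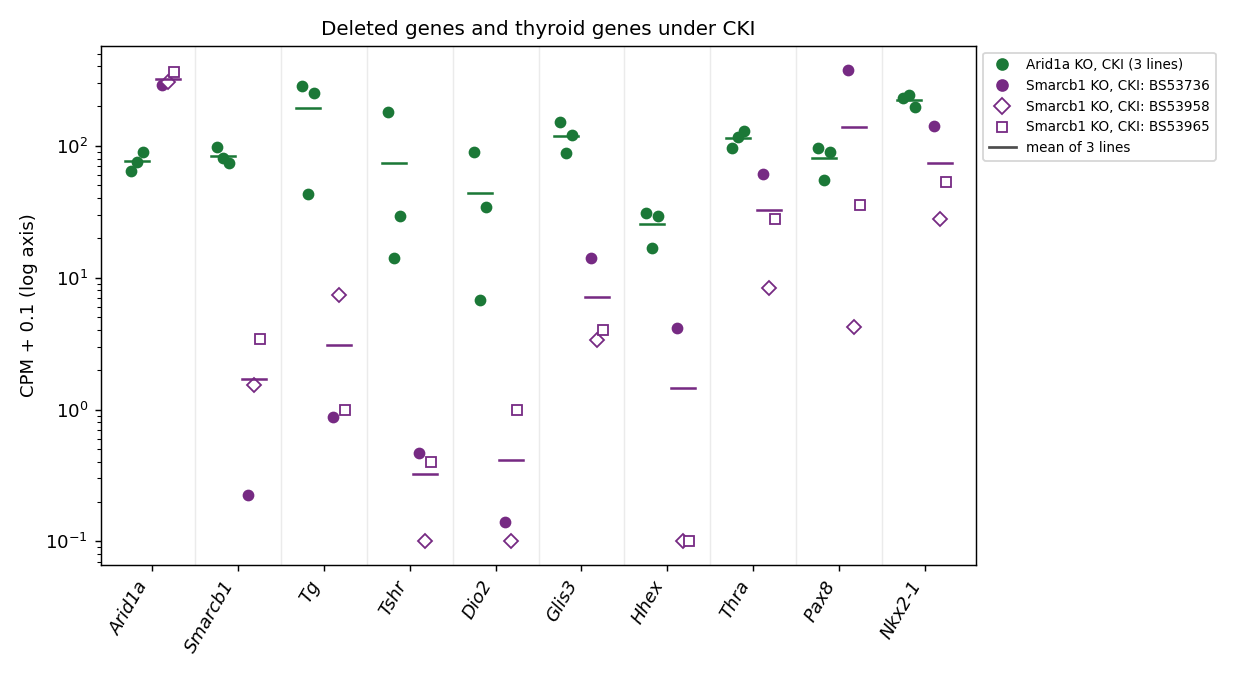
CPM plus 0.1 (log axis) of the deleted genes and of thyroid genes in each CKI library, Arid1a KO lines (green) left of Smarcb1 KO lines (purple, shallow libraries open); bars are means of 3 lines. Glis3, Tg, Tshr, Dio2, Hhex and Thra do not overlap between the groups, and Pax8 spans 4.13 to 379 CPM among Smarcb1 KO lines.

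The widest difference lay in extracellular matrix. Of 27 tested matrix proteins and matrix enzymes, 17 were higher in Arid1a KO and none were lower, with a median log2 change of 6.14 (6.03 with bounds). In the limma voom fit with the line as a random block, 6 of the 27 were higher and none were lower. Tgfbi, a secreted matrix adhesion protein that is counted in the TGF-beta list, had 5396, 1477 and 3277 CPM in Arid1a KO lines, against 0.041, 0.0842 and 0 CPM in Smarcb1 KO lines. That is 245387 counts against 2 counts in all, a ratio of 69653 (exact 95% interval of the counts 19282 to 575149), with an edgeR adjusted p of 0.00244. Fbln5, an elastic fibre protein, had 3042, 2732 and 3190 CPM in Arid1a KO lines, against 0.082, 0.253 and 0 CPM in Smarcb1 KO lines (log2 14.43 ± 2.54, edgeR adjusted p = 0.00113). Both genes were thus among the abundant transcripts of every Arid1a KO line and near the floor in every Smarcb1 KO line.

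Bgn and Dcn, small proteoglycans that bind collagen and TGF-beta, and Timp3, a metalloprotease inhibitor held in the matrix, followed the same pattern. Timp3 had 2704, 5373 and 2654 CPM in Arid1a KO lines, against 0.574, 6.65 and 0.899 CPM in Smarcb1 KO lines (log2 10.31 ± 2.26, edgeR adjusted p = 0.00414). Dcn had 351, 148 and 368 CPM in Arid1a KO lines, against 5.21, 0.0842 and 0 CPM in Smarcb1 KO lines (log2 7.08, adjusted p = 0.00393). Postn, periostin, had 3078, 2439 and 3062 CPM in Arid1a KO lines, against 0.041, 0 and 1.80 CPM in Smarcb1 KO lines, while Braf lines averaged 4.39 CPM. Of these 6 genes, Tgfbi and Timp3 lost their call in the limma voom fit. All 6 genes kept their call without each line in turn. Without both shallow lines their fitted changes were 5.76 to 16.86 and none kept the call (adjusted p from 0.0686 to 0.161), and 1 of the 27 list members was called. Without BA49112 or BS53965, 11 were called.

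Of 18 collagens, 8 were higher and none were lower (median log2 4.63). In the limma voom fit 3 were higher and none were lower, and Col1a1 and Col6a3 were not called. Col12a1, a collagen that sits on fibril surfaces, had 817, 2519 and 1897 CPM in Arid1a KO lines, against 1.39, 11.4 and 20.7 CPM in Smarcb1 KO lines. It differed by 7.34 ± 1.12 (edgeR adjusted p = 0.000417) and kept its call without both shallow lines (adjusted p = 0.00657). Col1a1, a chain of the main fibrillar collagen, had 420.5, 477 and 1172 CPM in Arid1a KO lines, against 0.615, 0.168 and 0 CPM in Smarcb1 KO lines. Col6a3 had 5.38, 98.1 and 168 CPM in Arid1a KO lines and no count in any Smarcb1 KO line. With counts pooled over each group it was at least 1141-fold higher against a floor of 3 counts, a bound that does not describe each line. Without both shallow lines, 2 of the 18 were called higher. Collagens and matrix genes were also higher in vehicle, where 5 of 18 collagens were called higher and 1 lower, and 11 of 27 matrix genes were called higher and none lower. Over all 15634 genes, 1280 were called higher in vehicle and 877 lower.

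**Figure D3:**
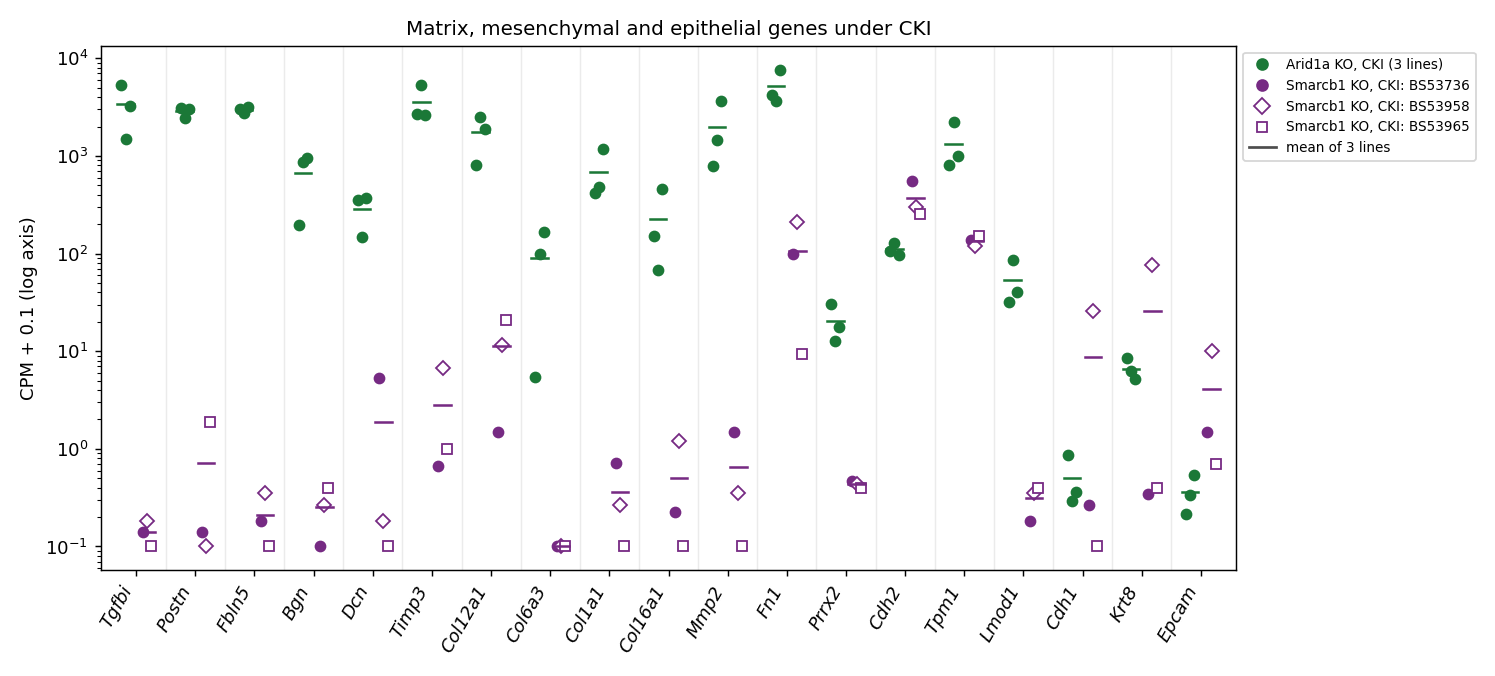
CPM plus 0.1 (log axis) of matrix, collagen, mesenchymal and contractile genes, and of the epithelial genes Cdh1, Krt8 and Epcam, in each CKI library, Arid1a KO lines (green) left of Smarcb1 KO lines (purple, shallow libraries open); bars are means of 3 lines. Matrix genes are separate between the groups, Cdh2 is lower in Arid1a KO, and the epithelial genes are highest in line BS53958.

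Genes of the mesenchymal list went the same way in 10 of 18 cases, with 1 lower (median log2 2.46; 2 higher and 1 lower without both shallow lines, and 6 higher without BS53965). Fn1, fibronectin, had 4187, 3682 and 7642 CPM in Arid1a KO lines, against 99.0, 209 and 9.29 CPM in Smarcb1 KO lines (log2 5.61 ± 1.4, edgeR adjusted p = 0.00893). Mmp2, a collagenase, and Prrx2, a mesenchymal homeobox factor, were higher by log2 changes of 11.39 and 5.85. Cdh2, N-cadherin, ran against its list, with 107, 129 and 97.0 CPM in Arid1a KO lines, against 552, 299 and 255 CPM in Smarcb1 KO lines (log2 -1.73, edgeR adjusted p = 0.00519). Fn1 and Cdh2 both kept their calls without each line and without both shallow lines.

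Of 14 smooth muscle and contractile genes, 5 were higher and none were lower (3 without both shallow lines, and 3 without BA47473 or BS53958). Tpm1, a tropomyosin, had 803, 2227 and 995 CPM in Arid1a KO lines, against 136, 119 and 152 CPM in Smarcb1 KO lines, and kept its call in all 14 alternative fits (other scalings, filters and tools, or lines left out; log2 3.30 ± 0.46, edgeR adjusted p = 0.000212). Markers of fibroblasts stood beside these genes. All 10 of the fibroblast markers were tested and 4 were called higher, among them Dcn and Lum, which the matrix list also holds, and 1 was called without both shallow lines. The call of Lum, a proteoglycan, ended without any 1 of the 6 lines (adjusted p up to 0.143). Their summed level was 691 to 1301 CPM in Arid1a KO lines, against 7.01 to 120.1 CPM in Smarcb1 KO lines. Pdgfra, a fibroblast receptor, had 757, 206 and 464 CPM in Arid1a KO lines, against 0.861, 67.5 and 106 CPM in Smarcb1 KO lines, and was not called (adjusted p = 0.149). Thy1, Fap, Pi16 and Col14a1, other fibroblast markers, had at most 1.28 CPM in any of the 6 libraries. The part of such cells in the matrix difference was not tested.

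None of 25 epithelial genes was called, although all 25 fitted changes were negative, with a median of -3.66. Cdh1, E-cadherin, had 0.774, 0.189 and 0.263 CPM in Arid1a KO lines, against 0.164, 25.8 and 0 CPM in Smarcb1 KO lines. Krt8, a simple epithelial keratin, had 8.39, 6.11 and 5.05 CPM in Arid1a KO lines, against 0.246, 77.0 and 0.30 CPM in Smarcb1 KO lines. BS53958 was the highest line for both genes. For Krt8, BS53736 and BS53965 were below every Arid1a KO line, and for Cdh1 the floor of 0.899 CPM in BS53965 is above every Arid1a KO line, so no order is read there. Summed over the list the level was 30.7 to 89.1 CPM in Arid1a KO lines, against 136, 447 and 138 CPM in Smarcb1 KO lines. Braf lines under CKI averaged 376 CPM of Cdh1 and 1097 CPM of Krt8, above every line of both knockouts. These genes were chosen after their values were seen, as defining markers of epithelium, and without both shallow lines the median of the list was 0.00.

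In the TGF-beta list, 5 of 16 genes were higher and none were lower (1 higher without both shallow lines), while the median log2 change was 0.42. Besides Tgfbi they included Ltbp1, which holds the latent ligand in the matrix, Tgfb3, a ligand, and Inhba, an activin chain named here after its value was seen (log2 4.06). Ltbp1 had 653, 817 and 921 CPM in Arid1a KO lines, against 10.3, 42.2 and 4.20 CPM in Smarcb1 KO lines (log2 5.38 ± 1.09, edgeR adjusted p = 0.00255). Tgfb3 had 137, 141 and 69.6 CPM in Arid1a KO lines, against 13.6, 37.9 and 23.7 CPM in Smarcb1 KO lines (log2 2.21, edgeR adjusted p = 0.0111), and both genes were separate between the groups.

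YAP and TEAD proteins pair as coactivator and DNA-binding factor to drive growth and cytoskeletal genes. Of 15 tested genes of that pathway, 3 were higher and 2 were lower (4 and 1 without both shallow lines). Ctgf, a secreted matricellular target, had 1563, 2210 and 1406 CPM in Arid1a KO lines, against 1.31, 19.8 and 8.39 CPM in Smarcb1 KO lines (log2 7.46 ± 1.67, edgeR adjusted p = 0.00464). Cyr61, a related target, had 1003, 1087 and 1001 CPM in Arid1a KO lines, against 193, 117 and 216 CPM in Smarcb1 KO lines (log2 2.56, edgeR adjusted p = 0.00161). Tead3, a TEAD factor itself, was higher by 1.57 ± 0.26. Ankrd1, a further target, went the other way, with 97.1, 211 and 100.4 CPM in Arid1a KO lines, against 556, 467 and 404 CPM in Smarcb1 KO lines (log2 -1.80, edgeR adjusted p = 0.00652). Targets of the pathway thus differed in both directions. Promoter windows (250 bases before to 50 after the start) were searched on both strands for the TEAD letters GGAATG, which 9 of 11 members with a RefSeq window held, against 16.6% of 27025 genes. The windows of Tead3 (GRCm38.p6, chr17:28350756-28351055, minus strand) and Cyr61 (now named Ccn1, chr3:145649936-145650235, minus strand) are shown 5′ to 3′, as the called members with the smallest adjusted p that hold the letters, which are in capitals on either strand.
Tead3: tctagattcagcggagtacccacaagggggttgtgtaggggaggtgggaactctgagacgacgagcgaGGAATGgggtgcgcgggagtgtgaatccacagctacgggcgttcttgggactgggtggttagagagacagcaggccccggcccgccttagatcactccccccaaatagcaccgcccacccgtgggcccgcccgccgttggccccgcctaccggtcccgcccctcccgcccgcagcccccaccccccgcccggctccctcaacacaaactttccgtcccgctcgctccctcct
Cyr61: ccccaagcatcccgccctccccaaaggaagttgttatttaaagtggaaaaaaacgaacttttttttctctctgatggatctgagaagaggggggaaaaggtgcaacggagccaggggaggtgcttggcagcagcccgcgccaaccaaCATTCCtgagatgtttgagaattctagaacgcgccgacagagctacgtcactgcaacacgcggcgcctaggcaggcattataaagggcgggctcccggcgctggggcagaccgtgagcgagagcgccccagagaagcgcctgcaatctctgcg

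Genes that report ERK activity did not move as a block. Of 20 MAPK output genes, 5 were higher, 8 were lower and 7 were not called in Arid1a KO, with a median log2 change of -0.44. Spred2, an inhibitor of RAS to RAF signalling, had 48.2, 56.2 and 66.0 CPM in Arid1a KO lines, against 216, 187 and 251 CPM in Smarcb1 KO lines (log2 -1.94 ± 0.26, edgeR adjusted p = 0.000182). Spry4, another feedback inhibitor, had 39.0, 15.5 and 17.8 CPM in Arid1a KO lines, against 206, 175 and 137 CPM in Smarcb1 KO lines (log2 -2.84, edgeR adjusted p = 0.00474). Myc, the growth regulator, had 37.6, 30.8 and 44.1 CPM in Arid1a KO lines, against 299.8, 141 and 299.7 CPM in Smarcb1 KO lines (log2 -2.72, edgeR adjusted p = 0.00256). All 3 genes were separate between the groups and kept their calls in each of 14 alternatives.

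Epha2, an Eph receptor, and Spred3, a further Spred inhibitor, were lower by -1.98 and -1.14, and kept their calls without each line in turn. Fosl1, an AP-1 subunit, Dusp5, an ERK phosphatase, and Ccnd1, cyclin D1, were lower by -3.05, -1.80 and -1.67. Each of these calls rested on single lines. Without BS53958, whose Ccnd1 level was 1923 CPM, none of the 3 was called, nor without BA45198 or BA47473 (adjusted p up to 0.132 for Fosl1, 0.323 for Dusp5 and 0.243 for Ccnd1).

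On the other side, Phlda1, an ERK-induced regulator of survival, had 539.9, 252 and 273 CPM in Arid1a KO lines, against 7.83, 68.3 and 10.5 CPM in Smarcb1 KO lines (log2 3.61 ± 0.86, edgeR adjusted p = 0.00666). Spred1 had 776, 635 and 642 CPM in Arid1a KO lines, against 180.1, 273 and 179 CPM in Smarcb1 KO lines (log2 1.70, edgeR adjusted p = 0.00989), opposite to Spred2 and Spred3. Epha4 was likewise higher by 5.42, opposite to Epha2, and all 3 kept their calls without each line. Ier3, an immediate early gene, and Spry2 were higher by 2.35 and 1.44, and these calls ended without BA45198 or BS53736, among other lines (adjusted p up to 0.177 and 0.139). Dusp4, Dusp6, Egr1, Etv1, Etv4, Etv5 and Spry1, direct ERK outputs, were not called, with log2 changes from -1.22 for Egr1 to 1.11 for Etv1. Without both shallow lines, 1 gene of the list was higher and 3 were lower, and without BA45198 3 were higher and 5 were lower (5 lower also without BA47473).

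**Figure D4:**
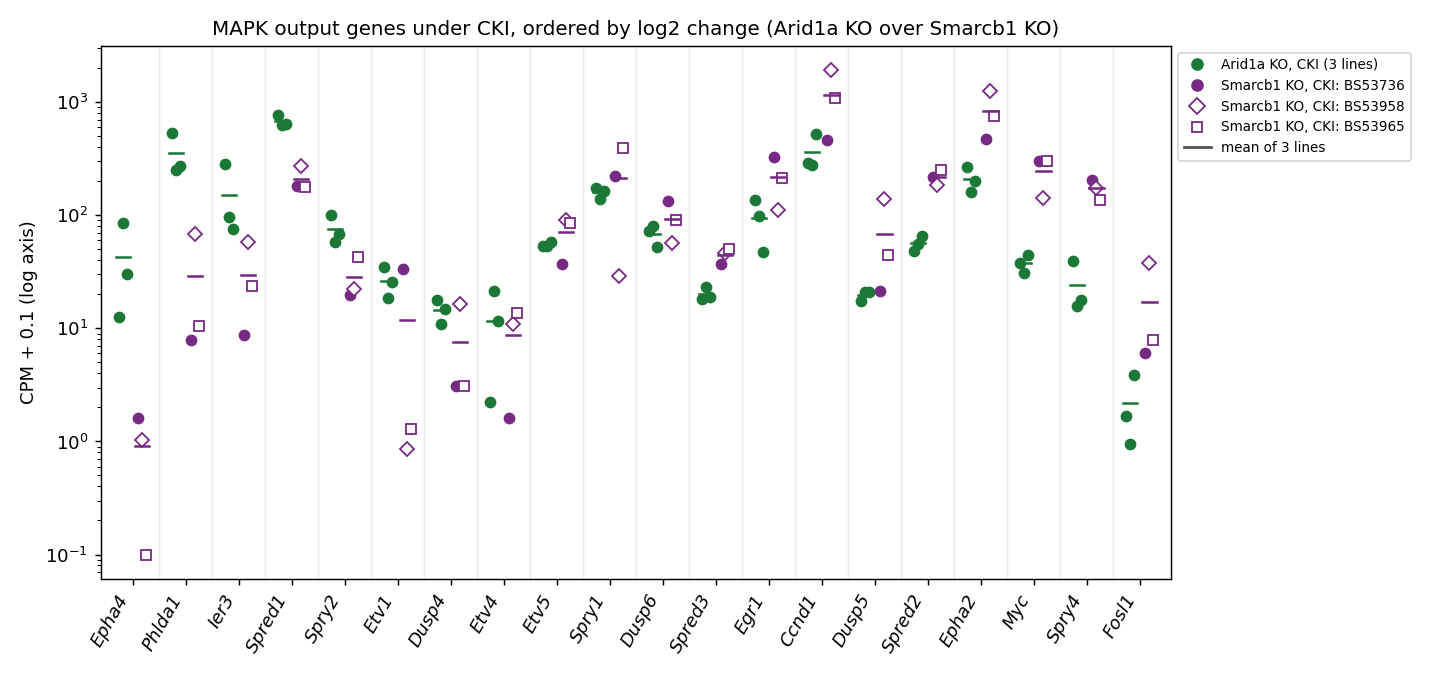
CPM plus 0.1 (log axis) of the 20 MAPK output genes in each CKI library, ordered from the most positive to the most negative log2 change, Arid1a KO lines (green) left of Smarcb1 KO lines (purple, shallow libraries open); bars are means of 3 lines. Spred1 and Phlda1 are higher and Spred2, Myc and Spry4 lower in every Arid1a KO line than in every Smarcb1 KO line.

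Upstream in the cascade, 6 of 16 RAS, RAF, MEK and ERK genes were higher and 2 were lower, with 1 higher without BA45198, 3 without BA47473 or BS53958 and 2 without BS53965. Rasa1, a GTPase activator that turns RAS off, had 136, 143 and 178 CPM in Arid1a KO lines, against 55.3, 59.5 and 58.7 CPM in Smarcb1 KO lines (log2 1.4, edgeR adjusted p = 0.00311). It kept its call in all 14 alternatives. Nras, a RAS GTPase, had 108, 113 and 111 CPM in Arid1a KO lines, against 165, 282 and 194 CPM in Smarcb1 KO lines (log2 -0.95, edgeR adjusted p = 0.0117), and its call ended without BS53958 (adjusted p = 0.0775). Without both shallow lines, 1 gene of the list was higher and 1 was lower. Braf itself had 92.4, 146 and 96.5 CPM in Arid1a KO lines, against 75.4, 51.2 and 79.4 CPM in Smarcb1 KO lines, and its call (log2 0.70, edgeR adjusted p = 0.0367) ended without BA45198, BA47473, BS53958 or BS53965 (adjusted p up to 0.192).

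Of 22 receptor tyrosine kinases, 5 were higher and 2 were lower (1 and 1 without both shallow lines; 0 to 3 higher without any 1 line, and none without BA45198), and of 21 growth factor genes 4 were higher and 1 was lower (1 higher without both). Igf1, a survival factor, had 713, 260.4 and 163 CPM in Arid1a KO lines, against 0, 0.0842 and 0 CPM in Smarcb1 KO lines. That is 1 count over the Smarcb1 KO group, a ratio of 15693 with an exact 95% counting interval of 2816 to 619857 (edgeR adjusted p = 0.00401). The call of Igf1 ended in the limma voom fit and without both shallow lines, where its fitted log2 change was 16.03. Fgf2, a fibroblast growth factor, had 5.80, 13.2 and 12.7 CPM in Arid1a KO lines and no count in Smarcb1 KO lines, at least 136-fold higher by pooled counts. Egfr had 106, 56.0 and 152 CPM in Arid1a KO lines, against 599.7, 319.9 and 924 CPM in Smarcb1 KO lines (log2 -2.56, edgeR adjusted p = 0.0218), a call that ended without BA47473 or BS53965 (adjusted p up to 0.0876). Ret, a receptor that is rearranged in some thyroid cancers, was higher by 5.68, and its call ended without BA45198 or any of the Smarcb1 KO lines (adjusted p up to 0.0654).

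Cholesterol synthesis separated the knockouts under CKI and not in the same direction in vehicle. The pathway turns acetyl units into sterols, and its genes are induced together by the factor SREBP2 when cell sterol is low. Of 22 tested genes, 12 were higher in Arid1a KO and none were lower, with a median log2 change of 1.38. Fdft1, squalene synthase, had 101, 84.4 and 75.3 CPM in Arid1a KO lines, against 17.7, 15.2 and 11.7 CPM in Smarcb1 KO lines (log2 2.54 ± 0.42, edgeR adjusted p = 0.000779). Insig1, a sterol sensor partner, had 184, 163 and 114 CPM in Arid1a KO lines, against 56.1, 19.8 and 19.8 CPM in Smarcb1 KO lines (log2 2.25 ± 0.40, edgeR adjusted p = 0.00124). Srebf2, which encodes SREBP2, had 238, 239 and 253 CPM in Arid1a KO lines, against 110.2, 109.6 and 97.7 CPM in Smarcb1 KO lines (log2 1.20, edgeR adjusted p = 0.00217).

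Cyp51, a sterol demethylase, was higher by 2.18 ± 0.40 (edgeR adjusted p = 0.00153), and all 4 genes were separate between the groups and called without each line in turn. Without both shallow lines none of the 22 was called, with a median log2 change of 1.17 and adjusted p-values of 0.0692 to 0.121 for these 4. In vehicle none were higher, 4 were lower and the median was -0.72, where 877 of all 15634 genes were lower. In the fit with the cell line as replicate block, 18 of the 22 had a larger log2 change under CKI than in vehicle at an adjusted p under 0.05, against 3.59% of all genes in either direction; for Fdft1 the difference was 2.74 ± 0.32 (edgeR adjusted p = 0.00514). Without the block none of these differences was called, and in that fit 3 genes of 15634 (0.0192%) were called in all.

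Of 22 members tested, 15 had a RefSeq promoter window. The CCAAT box, the letters bound by NF-Y, was in 15 of the 15, against 41.1% of 27025 genes, searched on both strands. It is not particular to this list, as the mitosis genes, which had negative changes, held it in 14 of 16 windows. The sterol regulatory element core CACCCCAC was in none of the 15 windows, against 3.3% of genes, which says only that these letters are not in these windows. The windows of Insig1 (GRCm38.p6, chr5:28071162-28071461, plus strand) and Cyp51 (chr5:4104648-4104947, minus strand) are shown 5′ to 3′ as the called members with the smallest adjusted p that hold a CCAAT box, in capitals on either strand.
Insig1: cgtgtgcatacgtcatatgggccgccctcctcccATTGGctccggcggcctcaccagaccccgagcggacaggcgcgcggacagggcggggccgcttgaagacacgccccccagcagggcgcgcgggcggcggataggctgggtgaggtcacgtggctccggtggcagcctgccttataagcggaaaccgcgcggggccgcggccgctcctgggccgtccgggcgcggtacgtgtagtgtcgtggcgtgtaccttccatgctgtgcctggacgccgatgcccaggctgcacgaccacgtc
Cyp51: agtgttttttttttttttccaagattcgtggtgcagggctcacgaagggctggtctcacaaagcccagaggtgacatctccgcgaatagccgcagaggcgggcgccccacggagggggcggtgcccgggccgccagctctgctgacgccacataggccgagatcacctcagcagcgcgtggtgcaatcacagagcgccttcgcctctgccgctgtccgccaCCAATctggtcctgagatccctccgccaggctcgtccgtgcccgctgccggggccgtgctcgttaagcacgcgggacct

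Proliferation genes were lower in Arid1a KO. Of 24 DNA replication and G1/S genes, 13 were lower and none were higher, with a median log2 change of -1.40. Cdt1, which loads the replicative helicase, had 5.38, 14.7 and 10.2 CPM in Arid1a KO lines, against 68.8, 124 and 82.4 CPM in Smarcb1 KO lines (log2 -3.18 ± 0.46, edgeR adjusted p = 0.000265). Pcna, the polymerase clamp, had 62.5, 74.4 and 69.8 CPM in Arid1a KO lines, against 136, 305 and 156 CPM in Smarcb1 KO lines (log2 -1.53, edgeR adjusted p = 0.00283). Pola1, a subunit of primase-polymerase, and Chaf1b, a histone chaperone, were lower by -1.68 and -2.28. Each of these 4 genes was lowest in BA45198 and highest in BS53958 among the 6 lines, and the groups did not overlap.

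The number of replication genes called was 4 without BA45198, 7 without BA49112, 4 without BS53958 and 1 without both shallow lines (median -0.83), and Cdt1 kept its call in all 14 alternatives. All 20 mitosis genes had negative changes (median -1.42) and 7 were called lower, against 1 in the limma voom fit. Nusap1, a spindle protein, had 9.13, 21.3 and 27.7 CPM in Arid1a KO lines, against 42.3, 143 and 42.0 CPM in Smarcb1 KO lines (log2 -1.97, edgeR adjusted p = 0.00967). No mitosis gene was called without BA45198, without BS53958, or without both shallow lines, and 4 and 1 were called without BA47473 and BA49112. Bub1, a spindle checkpoint kinase, and Birc5 and Aurkb, of the chromosomal passenger complex, were lower by -1.86, -1.89 and -1.81 in the fit of all lines.

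Of 15 D cyclin, CDK inhibitor and related genes, 1 was higher and 6 were lower, with 2 lower without BA45198, 3 without BA47473, BA49112 or BS53958 and 1 without both shallow lines. Rb1, the retinoblastoma gene, had 38.1, 41.9 and 37.5 CPM in Arid1a KO lines, against 203, 75.6 and 137 CPM in Smarcb1 KO lines (log2 -1.82 ± 0.35, edgeR adjusted p = 0.00185), and kept its call in all 14 alternatives. Ccnd3, cyclin D3, was higher by 1.13, opposite to Ccnd1, and its call ended without BS53958 (adjusted p = 0.0526). Windows were searched for the E2F letters TTTNNCGC, bound by the factors that Rb1 restrains: 12 of 20 replication genes with a window held them, against 5.93% of genes. The windows of Cdt1 (GRCm38.p6, chr8:122567765-122568064, plus strand) and Pola1 (chrX:93632106-93632405, minus strand) are shown on the same terms as above.
Cdt1: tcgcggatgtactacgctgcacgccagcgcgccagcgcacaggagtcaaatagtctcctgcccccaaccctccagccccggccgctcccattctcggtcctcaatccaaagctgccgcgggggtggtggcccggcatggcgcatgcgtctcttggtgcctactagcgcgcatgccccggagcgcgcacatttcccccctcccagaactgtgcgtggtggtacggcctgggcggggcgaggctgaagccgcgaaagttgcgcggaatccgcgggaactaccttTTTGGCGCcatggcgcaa
Pola1: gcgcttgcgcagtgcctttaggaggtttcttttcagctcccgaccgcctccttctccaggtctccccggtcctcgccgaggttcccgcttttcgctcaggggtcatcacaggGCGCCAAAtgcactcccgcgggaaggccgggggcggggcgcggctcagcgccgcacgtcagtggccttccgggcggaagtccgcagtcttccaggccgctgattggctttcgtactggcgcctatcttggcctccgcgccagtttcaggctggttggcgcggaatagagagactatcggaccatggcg

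**Figure D5:**
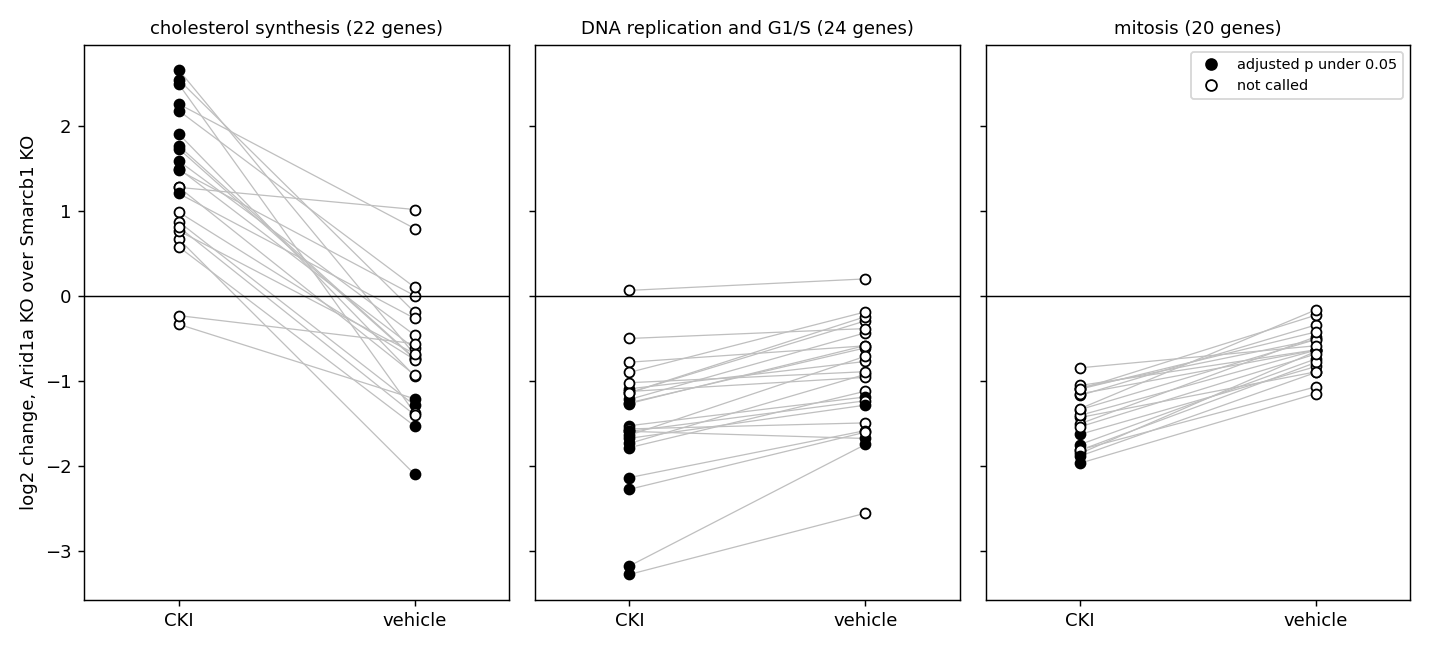
Log2 change (Arid1a KO over Smarcb1 KO) of each tested member of the cholesterol synthesis, DNA replication and mitosis lists under CKI (left) and in vehicle (right), lines joining the same gene, filled where the edgeR adjusted p was under 0.05. Cholesterol genes lie mostly above 0 under CKI (median 1.38) and below 0 in vehicle (median -0.72), and the other lists lie below 0 in both.

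Of 16 MHC class I genes, 5 were lower and 1 was higher (none higher without both shallow lines; 2 lower without both shallow lines, BA47473 or BA49112, and 3 without BS53958 or BS53965). H2-K1, a class I heavy chain, had 27.8, 20.03 and 28.8 CPM in Arid1a KO lines, against 252, 189 and 55.4 CPM in Smarcb1 KO lines (log2 -2.70 ± 0.65, edgeR adjusted p = 0.00734). Of 22 interferon genes 3 were lower (2 without both shallow lines), near the 11.7% of all genes. Cxcl10, an interferon-induced chemokine, had 0.658, 0.331 and 0.878 CPM in Arid1a KO lines, against 171, 9.26 and 14.99 CPM in Smarcb1 KO lines (log2 -6.70 ± 1.55, edgeR adjusted p = 0.00558). In vehicle 5 of the 22 were higher and none were lower, where 1280 of all 15634 genes were higher. Leukocyte markers, which could carry such genes, summed to 5.61 to 13.2 CPM in Arid1a KO lines and 5.05 to 20.7 CPM in Smarcb1 KO lines, with none called. Ptprc, the pan-leukocyte gene, was at or below 0.483 CPM in all 6 libraries.

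Of 15 heat shock and acute stress genes, 2 were higher and 4 were lower (1 and 3 without both shallow lines). Txnrd1, thioredoxin reductase, had 392, 416 and 359 CPM in Arid1a KO lines, against 2721, 917 and 1851 CPM in Smarcb1 KO lines (log2 -2.23 ± 0.41, edgeR adjusted p = 0.00153). Srxn1, sulfiredoxin, and Gclm, of glutathione synthesis, were lower by -1.78 and -1.95. Asns, asparagine synthetase, had 26.9, 42.4 and 27.03 CPM in Arid1a KO lines, against 205, 307 and 227 CPM in Smarcb1 KO lines (log2 -2.94, edgeR adjusted p = 0.00311), and was not called without both shallow lines (adjusted p = 0.0668). In its list, integrated stress and unfolded protein response, 1 of 17 genes was higher and 4 were lower, with none higher without any 1 line. The lower calls were 1 without BA49112 or BS53736 and 2 without BA47473 or without both shallow lines. The median of that list was -0.31, and 0.13 without BS53736. Of 19 glycolysis and hypoxia genes 3 were higher and 4 were lower (2 and 1 without both shallow lines; 1 lower without any 1 Arid1a KO line and 2 without BS53958), with Hk2, a hexokinase, higher by 3.96 and Eno1, an enolase, lower by -1.44.

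Of 22 Wnt genes, 7 were higher and none were lower (3 without both shallow lines and 4 without BS53958), among them the receptor Fzd1 at 1365, 516 and 415 CPM in Arid1a KO lines, against 4.02, 18.8 and 9.59 CPM in Smarcb1 KO lines (log2 6.15 ± 0.90, edgeR adjusted p = 0.000308). The coreceptor Lrp6 was higher by 2.69. The secreted Wnt modulator Dkk3 had 95.2, 48.5 and 90.1 CPM in Arid1a KO lines, against 0.123, 0 and 0 CPM in Smarcb1 KO lines. Of 28 axon guidance genes, 10 were higher and 4 were lower (7 and 1 without both), with Slit3, a guidance ligand, at 108, 379 and 455 CPM in Arid1a KO lines, against 0.082, 0 and 0 CPM in Smarcb1 KO lines. Of 14 BMP and Id genes 3 were higher (1 without both shallow lines), led by Id4 (log2 6.47 ± 1.05, edgeR adjusted p = 0.000653; 0.0514 without both). Of 14 retinoid genes 3 were higher and 3 were lower (1 and 1 without both; 1 lower without BA45198 or BA47473). Of 27 tested Hox genes, 5 were higher and 2 were lower (1 and 1 without both). The higher Hox calls were 2 without BA45198, 3 without BS53736 and 1 without BS53958, and the lower ones were 0 without BA45198, BA47473, BA49112 or BS53736 and 1 without BS53958 or BS53965. Of 18 chemokine and cytokine genes 3 were higher and 1 was lower (2 and none without both; none lower without any 1 Arid1a KO line or BS53965). Of 18 neuronal genes 1 was higher and 5 were lower (none and 1 without both; 2 to 4 lower without any 1 line). Of 10 AP-1 genes 1 was higher and 1 was lower (none without both).

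Other markers were checked. Of the adipocyte markers, Pparg, a nuclear receptor, and Lpl, lipoprotein lipase, were higher by 7.33 and 9.59, while the defining adipocyte genes Adipoq, Plin1 and Lep had at most 0.483 CPM. Endothelial markers summed to 2.27 to 5.57 CPM in Arid1a KO lines and 0.926 to 58.1 CPM in Smarcb1 KO lines, nearly all of it Cdh5 in BS53965 (57.5 CPM), and 1 of 6 tested, Tek, an endothelial receptor, was called higher. That call ended without BA49112 or BS53958 (adjusted p up to 0.068). Of C cell and skeletal muscle markers none were called, of 5 respiratory and stratified epithelium markers 2 were called higher (Trp63 and Krt5; none without both shallow lines), and parathyroid and red cell markers did not pass the filter. Krt5, a basal keratin, rested on 29 counts in Arid1a KO lines against 1 count in Smarcb1 KO lines, a ratio of 16 (exact 95% counting interval 3 to 672). Its call ended without BA47473, BA49112, BS53736 or BS53958 (adjusted p up to 0.0994). Of 6 tested mitochondrially encoded and 5 sex-linked genes none were called.

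Among single genes, the smallest adjusted p belonged to Zfp53, a zinc finger gene, at 7.93, 8.19 and 8.03 CPM in Arid1a KO lines, against 88.3, 112 and 108 CPM in Smarcb1 KO lines (log2 -3.67 ± 0.21, edgeR adjusted p = 1.23e-08). Ncoa3, a nuclear receptor coactivator, had 38.3, 31.9 and 32.5 CPM in Arid1a KO lines, against 263, 231 and 336 CPM in Smarcb1 KO lines (log2 -3.01). Il4ra, a cytokine receptor chain, had 334, 269 and 323 CPM in Arid1a KO lines, against 2.91, 6.48 and 1.20 CPM in Smarcb1 KO lines (log2 6.37). Cacna1a, a calcium channel, Shroom2, an actin regulator, Rab34, a cilium GTPase, and Shisa4 were higher by 5.68, 5.75, 2.99 and 2.69, and Vat1 was lower by -3.28. All of these genes kept their calls in all 14 alternatives. Gm13456 was also lower (log2 -5.42), and as its symbol marks a predicted gene that may share reads with a copy, it is uncertain.

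Among genes whose groups did not overlap (mean log2 CPM 2 or more), those with the largest changes were near absent in the lower group in most cases. Higher in Arid1a KO, besides genes given above, were Islr, Fhl1, Bmp5, Pde7b, Vip, G0s2 and Scara3. Of these, Bmp5 lost its call without any 1 of the 6 lines (adjusted p up to 0.104). Islr, Fhl1 and Bmp5 were not called in the limma voom fit. None of these genes kept its call without both shallow lines, where BS53736 alone is left and their fitted log2 changes were 12.89 to 14.02. Fhl1, a muscle LIM protein, had 2483, 93.3 and 428 CPM in Arid1a KO lines, against 0.123, 0 and 0.30 CPM in Smarcb1 KO lines. Vip, a neuropeptide, had 46.6, 33.7 and 139 CPM in Arid1a KO lines and no count in Smarcb1 KO lines, at least 964-fold higher by pooled counts. Among the genes lower in Arid1a KO, Tbx20, a T-box factor of the heart, had 0.116, 0.142 and 0.176 CPM in Arid1a KO lines, against 122, 185 and 51.6 CPM in Smarcb1 KO lines (log2 -9.64 ± 1.89, edgeR adjusted p = 0.00264), and Braf lines averaged 0 CPM.

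Pax2, a kidney and inner ear factor, had 0.0387, 0 and 0 CPM in Arid1a KO lines, against 246, 0.590 and 357 CPM in Smarcb1 KO lines. BS53958 was near 0 for Pax2, as were the Arid1a KO lines, and the call (edgeR adjusted p = 0.0210) ended without any 1 Arid1a KO line (adjusted p up to 0.0878). Slc6a18, a transporter, had no count in Arid1a KO lines, against 352, 0.253 and 185 CPM in Smarcb1 KO lines. With counts pooled over each group it was at least 5398-fold lower, which does not hold for BS53958, at its own floor of 3 counts. Slc38a1, an amino acid transporter, had 0, 0.189 and 0.0878 CPM in Arid1a KO lines, against 139.6, 51.0 and 93.8 CPM in Smarcb1 KO lines (log2 -9.98 ± 1.61, edgeR adjusted p = 0.000623). Nxph3, Dner, Fam65b, Asb5, Mreg, Gnai1 and Adam8 were lower by log2 changes from -6.94 to -9.75. The calls of Gnai1 and Adam8 ended without BA45198, among other lines (adjusted p up to 0.162 and 0.237), and the pseudogene Rps2-ps13 is uncertain for shared reads.

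The genotype difference was already present in vehicle for many genes. There, 2157 of 15634 genes (13.8%) were called, and 1206 were called in both treatments, 1199 of them in the same direction. That is 31.5% of the CKI calls and 55.9% of the vehicle calls. The difference of differences, CKI minus vehicle, was called for 3 genes (0.0192%; 1959 at an unadjusted p under 0.05). Zfp53 differed by -1.69, C430049B03Rik, a noncoding gene, by 6.34 and Wif1, a secreted Wnt inhibitor, by 8.48. None of the 3 was called without any 1 Arid1a KO line, without BS53965, or without both shallow lines. With the cell line as replicate block, 562 genes were called, 356 positive and 206 negative. A call under CKI without one in vehicle is therefore not by itself a difference between treatments.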

How the data were processed

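RNA was extracted with TRIzol and made into TruSeq libraries, per the labels. The deposited table holds raw read counts per gene symbol made by the authors. The submitters' processing notes name STAR 2.4, HTSeq 0.6.1, DESeq2 and build mm9 without their roles. Which annotation and strand mode were used is not given in the sources used here, so overlapping genes and pseudogenes are uncertain. The 24 tumor line libraries (8 groups of 3) entered 1 edgeR 4.0.16 quasi-likelihood fit (R 4.3.3) with TMM scaling, filterByExpr (15634 of 33924 symbols kept) and Benjamini-Hochberg adjustment. Standard errors were taken from the log2 change and its F statistic. The contrasts were Arid1a KO against Smarcb1 KO under CKI, in vehicle, and CKI minus vehicle. Vehicle and CKI libraries of a line deviated together (r 0.251 to 0.782 in 12 lines), so the last contrast was also fitted with the cell line as a replicate block. Alternatives used limma 3.58.1 and DESeq2 1.42.0. Named genes were the deleted genes and Braf, all members of the thyroid and MAPK lists, up to 4 called members of each other list with the smallest adjusted p, up to 12 non-overlapping genes with the largest change in each direction, and the 10 smallest adjusted p. The samples, lists and rule were chosen with earlier results of these data known. Promoters are RefSeq windows of GRCm38.p6, a build other than that of the counts, used for sequence only. Libraries held 2884130 to 26670135 counts, and intervals cover counting error only. Some genes that the rule names are not reported here.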

Additional observations from a re-analysis of the deposited data

Results flagged for a closer look

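The difference between Arid1a KO and Smarcb1 KO was itself different under CKI and in vehicle for 3 genes, by the test of CKI minus vehicle in edgeR. Wif1 had a difference of 8.48 on the log2 scale (adjusted p = 0.0242). In vehicle, Wif1 had 0.105, 0.0449 and 0.0437 CPM in Arid1a KO lines, against 82.1, 26.8 and 25.1 CPM in Smarcb1 KO lines. C430049B03Rik had a difference of 6.34 (adjusted p = 0.0142), with 0.949, 1.44 and 0.830 CPM in Arid1a KO lines in vehicle, against 10.8, 7.16 and 16.5 CPM in Smarcb1 KO lines. Zfp53 had a difference of -1.69 (adjusted p = 0.0301), and was lower in Arid1a KO in both treatments. With the cell line as replicate block the values were 8.42, 6.18 and -1.70. None of the 3 was called in this contrast without any 1 Arid1a KO line, without BS53965, or without both BS53958 and BS53965.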

How the results depend on the processing

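Under CKI, 3827 genes were called, against 2569 with limma voom and the line as a random block. In that fit 54 of the 165 named genes with a call lost it. Fitting only the compared groups gave 2487 calls, leaving out lines BS53958 and BS53965 gave 1007, and leaving out each line in turn gave 2228 to 3676. In vehicle, 2157 were called, against 3244 with DESeq2, 1416 with only the compared groups, 749 without both lines, and 1155 to 1919 without each line in turn. For CKI minus vehicle, 3 were called, against 9 with RLE size factors, 557 with DESeq2, 9 with a filter of 1 CPM, 27 with only the compared groups, 581 with limma voom and the line as a random block, 7 without both lines (0 of them among the 3), and 0 to 89 without each line in turn. With the cell line as replicate block that count was 562. No paired analysis was possible because, under 1 treatment, the genotypes are different lines; the pairing joins treatments of a line. No named gene reversed under any of these alternatives. The cause of these shifts was not tested, apart from fewer samples where lines were left out. Depth limits what the BS53965 library can show to about 0.899 CPM.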
